A study of Mus musculus with 8 samples.

Results

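The antioxidant, glutathione and aldehyde metabolism genes were followed in cultured mouse neurosphere cells across a 2 by 2 design of AzaC and TSA. They were every probe set (the array's unit of measurement, a group of short oligonucleotides for 1 transcript) whose single annotated symbol begins with Gst, with Gpx and a digit, or with Prdx, Akr or Aldh, or equals Gclc, Gclm, Nqo1, Hmox1 or Txnrd1. This gave 65 probe sets of 46 genes, out of 8251 genes with a single symbol on the array. Of these, 48 probe sets of 36 genes were bright enough to test (73.8%, against 64.3% of all probe sets), and 10 genes had several tested probe sets.

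Neurospheres are floating cultures of neural stem and progenitor cells. These came from the forebrains, isolated 1 by 1, of mouse embryos at day 14.5 of gestation, all carrying a bcl2 transgene. Every group, controls included, therefore had the transgene. The labels used here give neither its promoter nor the strain, nor which embryo each array came from. For 2 days the cells received nothing (untreated), 500 nM AzaC (5-aza-2'-deoxycytidine, which blocks DNA methyltransferases), 150 nM TSA (trichostatin A, which blocks histone deacetylases), or both drugs (AzaC/TSA). Each group had 2 arrays, 1 from each of 2 independent experiments, and the 4 groups had 8 arrays in all.

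Cells detoxify peroxides and reactive aldehydes by several routes. Glutamate-cysteine ligase, made of the catalytic subunit Gclc and the modifier subunit Gclm, makes the precursor of glutathione. Glutathione S-transferases (Gst) couple glutathione to electrophiles, and glutathione peroxidases (Gpx) use it to reduce peroxides. Peroxiredoxins (Prdx) reduce peroxides with electrons from thioredoxin, which thioredoxin reductase (Txnrd1) recharges. Aldo-keto reductases (Akr) reduce aldehydes to alcohols, and aldehyde dehydrogenases (Aldh) oxidise them to acids. Many of these genes are known targets of the transcription factor Nfe2l2 (NRF2), which with a small Maf protein binds the antioxidant response element.

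Signals are in the deposited array units, in which each array has a trimmed mean of 200.1. Signals under 20 were raised to that floor before taking log2, and a probe set was tested where at least 2 of the 8 arrays reached 50. A probe set could reach this on its TSA arrays alone, as those of Gstm6 and Gstt1 and 93009_at of Gstm2 did. That of Gpx3 reached it on treated arrays alone, and that of Gsta4 on the arrays of 1 experiment alone. Median signals per array ran from 59.2 to 72.7, 53.1% to 58.3% of probe sets reached 50, and the actin 5' to 3' signal ratio, a sign of RNA integrity, ran from 0.29 to 0.471. Neural stem and progenitor markers were present: of 11 listed, 9 were on the array, and their summed signal was 14564 to 17228 on the 4 arrays without TSA and 5933 to 13077 on the 4 with TSA. Fabp7, a radial glia lipid-binding protein, made most of that difference (7830.1 to 10920.1 without TSA, 1062.9 to 5499.4 with it). It alone passed among the tested markers of this list (log2 -1.89, limma adjusted p = 0.00459). Pax6 (-1.08), Nes (-0.37), Sox2 (-0.06), Hes1 (0.25) and Prom1 (at least 1.75) did not pass. Nor did Msi1 (-0.42), with arrays under the floor both with and without TSA. Hes5 and Vim were too dim to test. The 7 neuron markers on the array summed to 1998 to 2806 and 1712 to 2492. Within that sum Snap25 (4.3 to 31.8 without TSA, 252 to 615.4 with it), Syp and Stmn2 rose (log2 at least 4.03, at least 1.71, and 1.41). Tubb3, which makes most of the sum, fell (-0.82), and all of these were past the limma threshold. The changes of Snap25 and Syp are lower bounds, as their untreated arrays were under the floor. Their arrays without TSA would not alone have passed the filter, which favours their calls. The 5 astrocyte markers summed to 245 to 307 and 170 to 214. Of these, S100b fell (log2 -1.29, limma adjusted p = 0.0163) and Gfap did not pass (0.26). Aqp4, Gjb6 and Slc1a2 were too dim to test. The 7 microglia and macrophage markers summed to 176 to 393 and 295 to 593, of which Cd68, a lysosomal protein, rose (2.84). The arrays of Cd68 without TSA would also not alone have passed the filter. Csf1r (-0.90) and Cx3cr1 (-0.53) did not pass, and Aif1, Itgam and Ptprc were under the floor on every array. Their part in the results below was not tested, and in bulk RNA fewer cells of a type and less RNA per cell cannot be told apart.

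The promoters of Gstp1, Akr1b8, Aldh1a7 and Prdx2, which moved with TSA, and of Gclm are shown because the results turn on these genes. Each is the 250 bases before the annotated start, 5' to 3' on the gene's strand, from RefSeq on GRCm38.p6, where 38 of the 46 genes matched. Gclc and Aldh2, which also moved, were not among the 38, and their promoters were not searched here. Gstp1 lies at chr19:4037913-4038162 (minus strand), Akr1b8 at chr6:34353896-34354145 (plus), Aldh1a7 at chr19:20727557-20727806 (minus), Prdx2 at chr8:84969372-84969621 (plus) and Gclm at chr3:122245307-122245556 (plus). Capitals mark matches to the motifs described after them.
Gstp1: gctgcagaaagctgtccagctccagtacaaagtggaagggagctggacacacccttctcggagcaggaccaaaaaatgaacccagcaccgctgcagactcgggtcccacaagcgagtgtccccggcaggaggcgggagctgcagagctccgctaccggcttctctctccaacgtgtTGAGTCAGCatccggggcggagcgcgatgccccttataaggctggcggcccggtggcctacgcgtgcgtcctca
Akr1b8: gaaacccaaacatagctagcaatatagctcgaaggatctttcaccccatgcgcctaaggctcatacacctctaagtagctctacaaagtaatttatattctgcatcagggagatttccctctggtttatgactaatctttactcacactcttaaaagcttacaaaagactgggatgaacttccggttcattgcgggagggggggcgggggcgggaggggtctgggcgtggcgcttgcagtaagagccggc
Aldh1a7: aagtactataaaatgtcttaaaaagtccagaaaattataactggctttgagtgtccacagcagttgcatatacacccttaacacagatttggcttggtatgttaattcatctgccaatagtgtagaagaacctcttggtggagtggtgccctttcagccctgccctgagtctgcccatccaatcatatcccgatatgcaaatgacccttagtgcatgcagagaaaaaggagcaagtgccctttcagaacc
Prdx2: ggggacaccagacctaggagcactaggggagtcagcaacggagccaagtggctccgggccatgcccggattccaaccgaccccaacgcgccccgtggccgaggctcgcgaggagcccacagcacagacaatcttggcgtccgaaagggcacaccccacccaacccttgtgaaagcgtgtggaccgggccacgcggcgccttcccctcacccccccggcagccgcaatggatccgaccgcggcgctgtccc
Gclm: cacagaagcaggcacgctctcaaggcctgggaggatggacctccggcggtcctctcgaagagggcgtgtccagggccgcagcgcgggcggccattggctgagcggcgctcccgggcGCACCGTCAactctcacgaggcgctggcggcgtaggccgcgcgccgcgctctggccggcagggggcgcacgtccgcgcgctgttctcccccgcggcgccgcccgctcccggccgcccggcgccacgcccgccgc

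The core letters of the antioxidant response element, TGACNNNGC, were searched on both strands. The 48 member promoters are windows of 38 genes, some with several annotated starts. The core letters matched 6 of them (12.5%), and 3338 of 32851 promoters of the same length (10.2%). The 6 were those of Gclm, Txnrd1, Gstm5, Aldh9a1, Gsta3 and Aldh1a2. In Gclm the match reads GCACCGTCA on the strand shown, 134 to 126 bases before the start. In Txnrd1 it reads GCTTTGTCA, 92 to 84 bases before 1 of the gene's annotated starts. The windows of the other Txnrd1 starts held no match. The Gstp1 promoter has no such match. A second motif, TGANTCAGC, was chosen after the sequences were seen. It matched Gstp1 alone among the member promoters (TGAGTCAGC, 74 to 66 bases before the start) and 335 of all promoters (1.02%). The motifs overlap, and 142 promoters held matches to both. Neither motif matched in the windows shown of Akr1b8, Aldh1a7 and Prdx2. A match is a description of letters and does not show binding. The windows shown also differ in CpG, the site of the methylation that AzaC inhibits: Gclm has 41 CpG, Prdx2 23, Gstp1 18, Akr1b8 9 and Aldh1a7 1, against medians of 7.5 over the member promoters and 6 over all.

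TSA moved a small set of these genes, in both directions. Over the 4 arrays with TSA against the 4 without (TSA pooled over AzaC), 7 of the 48 tested probe sets were higher and 1 was lower by limma at an adjusted p under 0.05. The genes that rose were Akr1b8, Gstp1, Gclc, Aldh2 with all 3 of its probe sets, and Aldh1a7. The gene that fell was Prdx2, on 1 of its tested probe sets. The 8 calls are 16.7% of the tested probe sets, close to the 14.5% of all probe sets called in the same comparison (6.95% higher and 7.54% lower). The median change over the 48 was 0.22 on the log2 scale, and over all 7987 tested probe sets it was -0.03. Adding the experiment as a block gave 13 calls (27.1%), against 23.9% of all probe sets. Leaving out untreated 2, AzaC 2 or TSA 1 left 5 calls each (10.4%), where 7.20%, 9.39% and 8.35% of all probe sets were called. By role, 1 of 16 Gst probe sets rose, 1 of 5 Akr and 4 of 13 Aldh rose, 0 of 4 Gpx passed (0 also with the block), 1 of 4 Prdx fell, and 1 of the 6 probe sets of Gclc, Gclm, Nqo1, Hmox1 and Txnrd1 rose.

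**Figure D1:**
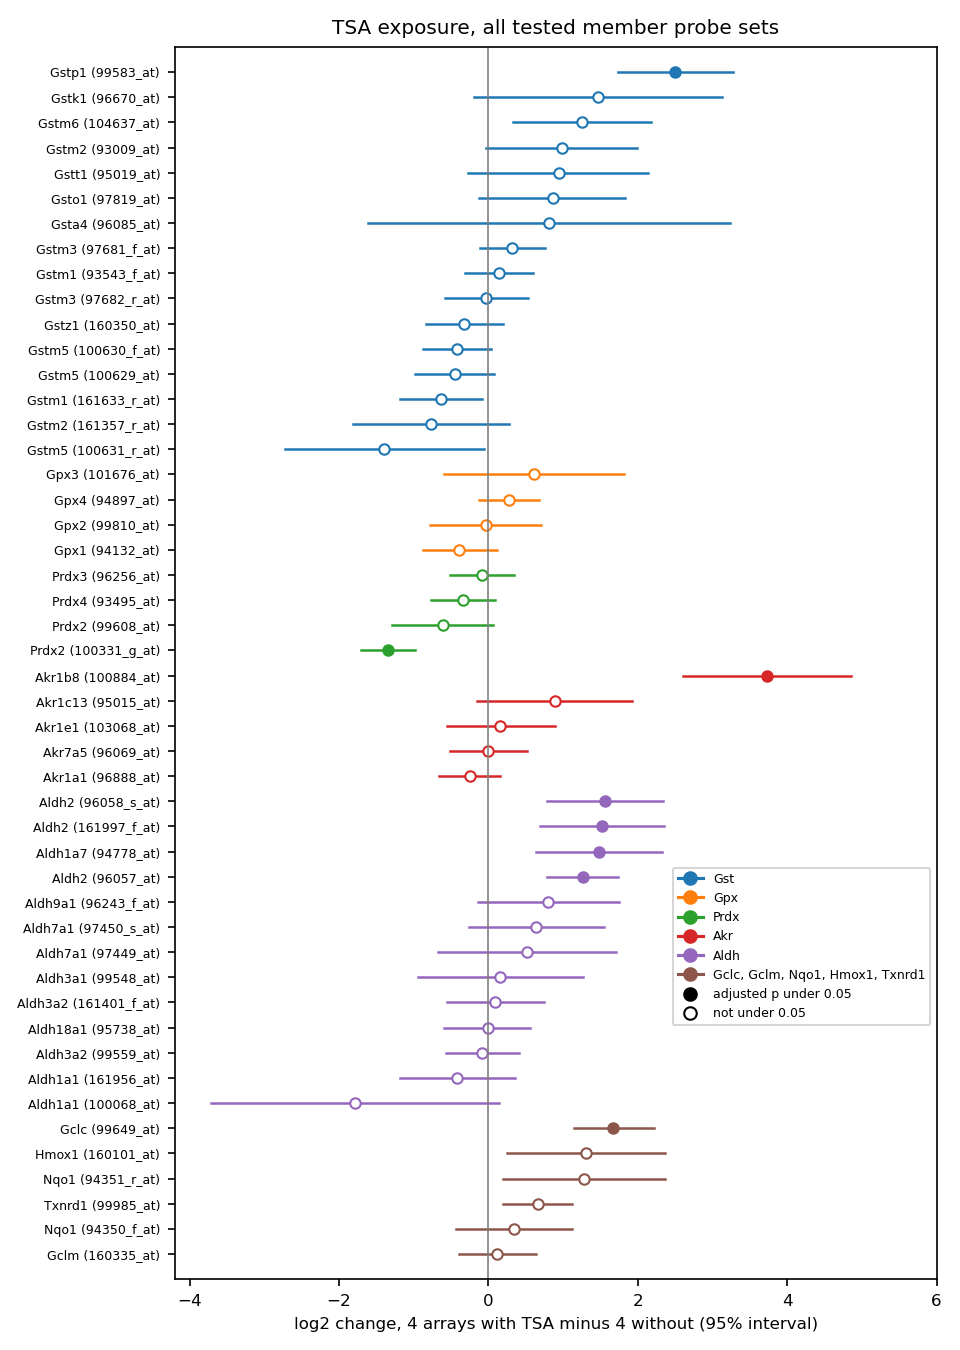
Change with TSA of all 48 tested member probe sets, as log2 of 4 arrays with TSA minus 4 without (x axis), grouped by family on the y axis, with 95% intervals from the fit. Filled points passed an adjusted p of 0.05: Akr1b8, Gstp1, Gclc, 3 probe sets of Aldh2 and Aldh1a7 lie to the right of 0 and Prdx2 to the left.

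Of the subunits of glutamate-cysteine ligase, Gclc rose with TSA and Gclm did not pass. For Gclc, the catalytic subunit, signals in experiments 1 and 2 were 222.7 and 276.9 in untreated cells, 163.5 and 232.2 with AzaC, 590.6 and 963.1 with TSA, and 572.8 and 745.6 with AzaC/TSA. Every array with TSA was above every array without it. The rise was 3.19-fold (log2 1.67, SE 0.24, n = 4 against 4 arrays, limma adjusted p = 0.00294). For Gclm, the modifier subunit, they were 379.7 and 278.3 untreated, 329.3 and 208.1 with AzaC, 324.8 and 269.0 with TSA, and 331.5 and 350.1 with AzaC/TSA. These ranges overlapped, and the difference of 0.12 had a 95% interval of -0.39 to 0.63 (limma adjusted p = 0.768). The interval lies below the whole interval of Gclc, 1.14 to 2.21, but the difference between the subunits was not itself tested.

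Among the glutathione S-transferases, Gstp1 of the pi class rose. Its signals were 1607 and 1476 untreated, 1840.6 and 893.7 with AzaC, 5951.2 and 12626.6 with TSA, and 5056.9 and 10515 with AzaC/TSA. The arrays with and without TSA did not overlap, and within both TSA groups the array of experiment 2 was the higher. The rise was 5.66-fold (log2 2.5, SE 0.34, adjusted p = 0.00249 by limma). Mouse Gstp1 has a near-identical copy beside it, so its probe set may also measure that copy.

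The other 15 Gst probe sets did not pass, and their changes ran in both directions. Gstk1, the kappa-class transferase of mitochondria and peroxisomes, was at 130.1 and 12.2 untreated, 174 and 92.4 with AzaC, 447.2 and 80.5 with TSA, and 482.2 and 136.7 with AzaC/TSA. Its signal was higher with TSA in all 4 pairs of arrays of the same experiment, although the groups overlapped (at least 1.46, SE 0.73, adjusted p = 0.226). With the experiment as a block the adjusted p was 0.0077. "At least" marks a change whose lower group had an array under the floor.

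The mu-class genes are close relatives whose probe sets can cross-hybridise, as names ending in _f_at mark. Gstm1 (93543_f_at) was at 4756.1 and 2953.9 untreated, 3936.9 and 3498.1 with AzaC, 4076.7 and 3667.5 with TSA, and 3726 and 5097.6 with AzaC/TSA. Its change was 0.14 (SE 0.20, limma adjusted p = 0.696). A dimmer tested probe set of Gstm1 (161633_r_at) lay in the other direction without passing (-0.64, SE 0.24, limma adjusted p = 0.115). It was lower with TSA in 3 of 4 pairs. All 3 tested probe sets of Gstm5 were lower with TSA in 4 of 4 pairs, with log2 changes of -0.42, -0.45 and -1.40, and none of them passed. The last (100631_r_at) was at 109.8 and 141.5 untreated, 95.3 and 144.3 with AzaC, 22.9 and 95.5 with TSA, and 20.4 and 99.9 with AzaC/TSA, with an adjusted p of 0.15 by limma and 0.0253 with the block. Gstm6 (104637_at) was under the floor on every array without TSA and at 31.5 to 72.6 on the 4 with TSA (at least 1.25, limma adjusted p = 0.0732). It was tested only because TSA arrays passed the filter, which favours this difference. Its other probe set (104636_at), too dim to test, was at 3.5 to 25.1 without TSA and 29.8 to 52.3 with it.

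Akr1b8, an aldo-keto reductase of the aldose reductase subfamily, had the largest change of the tested members. Its signals were 97.5 and 21.1 untreated, 38.7 and 81.4 with AzaC, 511.3 and 1019.4 with TSA, and 511.8 and 756.2 with AzaC/TSA. No array without TSA reached the lowest array with it. The rise was 13.3-fold (log2 3.73, SE 0.49, limma adjusted p = 0.00224). The other 4 tested Akr probe sets did not pass. Akr1a1, the general aldehyde reductase and the brightest Akr probe set, was at 2605.2 and 4005.1 untreated, 3161.4 and 2990.2 with AzaC, 2498.3 and 2936.7 with TSA, and 2524.4 and 2658.6 with AzaC/TSA (-0.25, SE 0.18, limma adjusted p = 0.406). Akr1c13, Akr1e1 and Akr7a5 had changes of 0.89, 0.16 and 0.00.

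**Figure D2:**
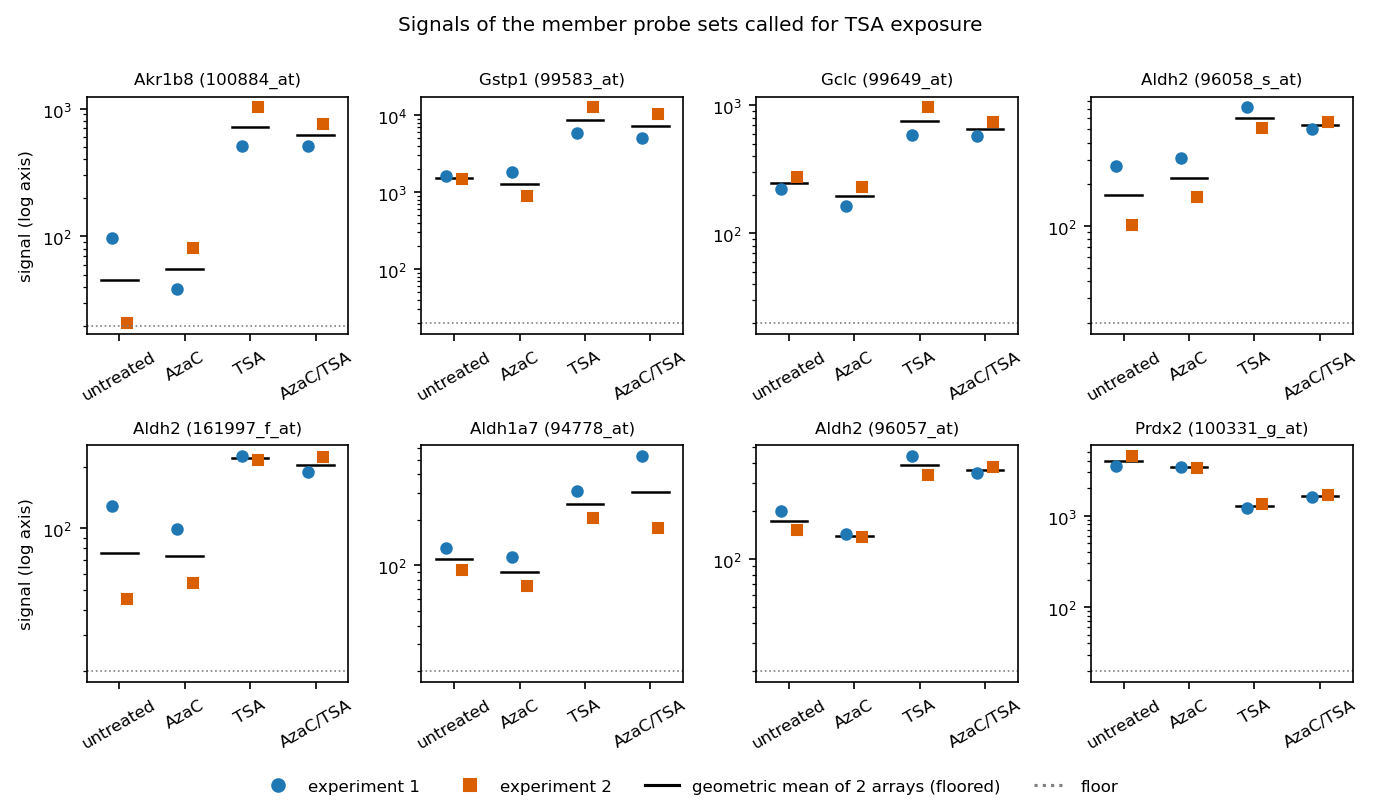
Signal of each member probe set that passed for TSA pooled over AzaC, in every array (points, by experiment) with the geometric mean of the 2 arrays of a group (bars), on a log axis. In each panel the TSA and AzaC/TSA arrays lie apart from the untreated and AzaC arrays, above them for 7 probe sets and below them for Prdx2. The panels were chosen by the same comparison of these arrays, so the separation is not separate evidence. Members that did not pass, such as Txnrd1, could also lie apart.

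Among the aldehyde dehydrogenases, Aldh2 and Aldh1a7 rose. Aldh2, the mitochondrial enzyme that clears acetaldehyde, was measured by 3 probe sets. On 96057_at its signals were 199.8 and 151.7 untreated, 143 and 136.7 with AzaC, 443.8 and 337.7 with TSA, and 343.7 and 379.2 with AzaC/TSA, a rise of 2.4-fold (log2 1.26, SE 0.21, limma adjusted p = 0.00531). On 96058_s_at they were 270.8 and 101.7, 306.9 and 161, 716.2 and 505.6, and 503.2 and 565.2 in the same order (2.95-fold, adjusted p = 0.0181). On 161997_f_at they were 128.3 and 44.9, 99.5 and 54, 227.4 and 217.2, and 189.4 and 223 (2.87-fold, adjusted p = 0.0266). On all 3 probe sets the arrays with TSA stood above those without. The last 2 may also hybridise with related transcripts. They lost the call without any filter (adjusted p = 0.108 and 0.119), without untreated 2 (0.0516 and 0.0671), without AzaC 2 (0.0588 and 0.0791), without TSA 1 (0.072 and 0.0822) and without AzaC/TSA 2 (0.0528 and 0.074). The 161997_f_at call was also lost without TSA 2 (0.0767) and without AzaC/TSA 1 (0.0599).

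Aldh1a7, a rodent relative of Aldh1a1, was at 130.6 and 93.8 untreated, 112.8 and 73 with AzaC, 310.9 and 206.9 with TSA, and 532.6 and 176.3 with AzaC/TSA. The groups did not overlap, and the rise was 2.78-fold (log2 1.48, SE 0.37, limma adjusted p = 0.0313). The call was lost under 8 of 16 alternatives: without the filter (adjusted p = 0.137), without the intensity trend (0.0525), and without untreated 1 (0.0607), untreated 2 (0.109), AzaC 2 (0.09), TSA 1 (0.106), TSA 2 (0.0619) or AzaC/TSA 1 (0.0723). Under these its change was between 1.08 and 1.62.

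Aldh1a1, which makes retinoic acid from retinaldehyde, lay in the other direction on its brighter probe set (100068_at): 1875.6 and 1533.9 untreated, 1717.8 and 173.1 with AzaC, 502 and 124.1 with TSA, and 921.5 and 104.3 with AzaC/TSA. It was lower with TSA in 4 of 4 pairs, but the AzaC array of experiment 2 overlapped those with TSA (-1.79, SE 0.85, limma adjusted p = 0.202, and 0.0117 with the block). A dimmer probe set of the gene (161956_at) had a change of -0.42 (adjusted p = 0.465). Aldh7a1, which acts in lysine breakdown, had changes of 0.52 and 0.64 on its tested probe sets, Aldh9a1 0.80, Aldh3a1 at least 0.16, Aldh3a2 0.09 and -0.08, and Aldh18a1 -0.01, and none of these passed.

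Of the peroxide-reducing enzymes, Prdx2 fell, passing the threshold on 100331_g_at alone. This cytosolic peroxiredoxin was at 3501.1 and 4526.7 untreated, 3429.3 and 3356.1 with AzaC, 1223.2 and 1351.2 with TSA, and 1596.9 and 1679.7 with AzaC/TSA on 100331_g_at. All arrays with TSA were below all those without, and the level was 2.53-fold lower (log2 -1.34, SE 0.16, limma adjusted p = 0.00127). A second tested probe set of Prdx2 (99608_at) lay in the same direction without passing, at 206.1 and 418 untreated, 218.5 and 302.9 with AzaC, 181 and 171.2 with TSA, and 243.6 and 138 with AzaC/TSA (-0.61, SE 0.30, limma adjusted p = 0.212). Another (100330_at) was under the floor on all arrays. Whether 100331_g_at also measures related transcripts was not tested. Prdx3, the mitochondrial form, and Prdx4, that of the endoplasmic reticulum, had changes of -0.09 and -0.34.

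None of the glutathione peroxidases passed for TSA; at an unadjusted p under 0.05 the count over all 48 member probe sets was 14 (29.2%, against 29.6% of all probe sets). Gpx4, which reduces lipid hydroperoxides, was at 388.9 and 366.4 untreated, 315.5 and 274.5 with AzaC, 459.3 and 382.5 with TSA, and 393.6 and 379.4 with AzaC/TSA. It was higher with TSA in 4 of 4 pairs, by 0.27 (SE 0.18, limma adjusted p = 0.352). Gpx1, Gpx2 and the secreted Gpx3 had changes of -0.39, -0.03 and at least 0.61.

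Txnrd1, Hmox1 and Nqo1, the other stress-responsive enzymes of the set, did not pass for TSA. Txnrd1 signals were 713.8 and 741.7 untreated, 873.9 and 1009.1 with AzaC, 1196.3 and 1165.3 with TSA, and 1098.2 and 1908.7 with AzaC/TSA. The groups did not overlap, with a change of 0.66 (SE 0.20, limma adjusted p = 0.0609). It passed with the block (0.0185), with median centring (0.0394) and without AzaC/TSA 1 (0.0263).

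Hmox1, which breaks down heme, was at 1097.3 and 546.8 untreated, 895 and 713.7 with AzaC, 1744.7 and 2090.7 with TSA, and 859.1 and 4589.1 with AzaC/TSA. Both TSA arrays and the AzaC/TSA array of experiment 2 were above all arrays without TSA, and the AzaC/TSA array of experiment 1 was among them (1.31, SE 0.47, limma adjusted p = 0.0974, and 0.00671 without AzaC/TSA 1). Nqo1, a quinone reductase, had 2 probe sets that differed. On 94351_r_at it was at 41.8 and 97.5 untreated, 20.6 and 71.5 with AzaC, 91.5 and 114.5 with TSA, and 97 and 204.7 with AzaC/TSA. This was higher with TSA in 4 of 4 pairs (1.28, SE 0.48, limma adjusted p = 0.112, and 0.0147 with the block). On 94350_f_at it was at 63.8 and 62.3, 49 and 70.9, 61.8 and 76.1, and 57.8 and 129.4 in the same order (0.34, SE 0.34, adjusted p = 0.562).

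Akr1b8, Gstp1, Gclc and Prdx2 passed for TSA both in the absence and in the presence of AzaC. TSA alone against untreated cells called 3 member probe sets higher and 1 lower (8.33% of 48, against 5.02% of all probe sets, 2.09% higher and 2.93% lower): Akr1b8 (log2 3.99, SE 0.70, limma adjusted p = 0.0175), Gstp1 (2.49, 0.0246), Gclc (1.60, 0.031) and Prdx2 (-1.63, 0.00719). TSA added to AzaC is AzaC/TSA against AzaC. It compares none of the arrays of the first comparison, but both tests took their spread from all 8 arrays and are not independent. It called 4 higher and 1 lower (10.4%, against 2.79%, 1.11% higher and 1.68% lower). These were Akr1b8 (3.47, SE 0.70, limma adjusted p = 0.0379), Gstp1 (2.51, 0.0327), Gclc (1.75, 0.0324), Aldh2 on 96057_at (1.37, 0.0469) and Prdx2 (-1.05, 0.0469). AzaC/TSA against untreated called 2 higher and 1 lower (6.25%, against 3.12%, 1.29% higher and 1.83% lower): Akr1b8 (3.78, 0.025), Gstp1 (2.24, 0.0432) and Prdx2 (-1.28, 0.0201), all by limma. Gclc had 1.40 there, with an adjusted p of 0.0655 by limma and 0.00599 with the block.

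These comparisons of 2 arrays against 2 depended on single arrays and on the block. For TSA alone the count of 4 member calls became 0 without untreated 2 or TSA 2, 1 without TSA 1, and 9 with the block (0.701%, 0.839%, 1.24% and 12.2% of all probe sets were then called). For AzaC/TSA against untreated the count of 3 became 0 when untreated 2 or AzaC/TSA 2 was left out, 1 when AzaC/TSA 1 was, 2 when untreated 1 was, and 10 with the block (0.175%, 1.15%, 0.826%, 1.28% and 9.34% of all). For TSA added to AzaC the count of 5 became 0 without AzaC 1, AzaC 2 or AzaC/TSA 2, 1 without untreated 1, untreated 2 or AzaC/TSA 1, and 2 without TSA 1 or TSA 2, where 0.601% to 1.98% of all probe sets were called, and it was 7 with the block (9.32%). With the block, Gstk1 (0.0201), Aldh1a1 (0.0145) and the 3 Aldh2 probe sets (0.00837 to 0.0465) were added for TSA alone, and Aldh1a7 (0.0141) and Nqo1 on 94351_r_at (0.0286) for TSA added to AzaC. These are adjusted p-values by limma.

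**Figure D3:**
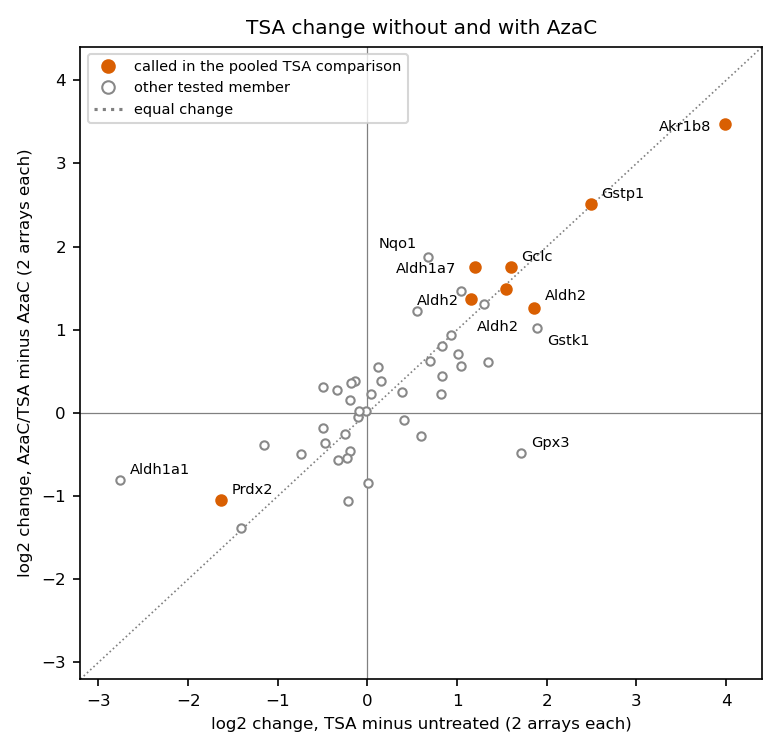
Log2 change of each tested member probe set for TSA against untreated (x axis) and for AzaC/TSA against AzaC (y axis), 2 arrays in each group, with the line of equal change. Akr1b8, Gstp1 and Gclc lie far to the upper right near the line and Prdx2 to the lower left, while Gpx3 and Aldh1a1 lie off the line.

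AzaC called no member in any comparison. By limma, 0 of 48 member probe sets and 0 of all 7987 (0.00%) passed for AzaC against untreated, for AzaC/TSA against TSA, for AzaC pooled over TSA and for the interaction of the drugs, with and without the block. At an unadjusted p under 0.05 the member counts were 2 (4.17%, against 2.19% of all probe sets), 0 (against 2.32%), 0 (against 2.54%) and 0 (against 1.78%). With the block they were 4 (8.33%, against 4.11%), 0 (against 4.31%), 1 (2.08%, against 5.11%) and 3 (6.25%, against 3.23%). For Gclc the pooled AzaC change was -0.28 (95% interval -0.81 to 0.26), for Gstp1 -0.26 (-1.03 to 0.51), for Akr1b8 0.05 (-1.07 to 1.16) and for Prdx2 0.06 (-0.30 to 0.42). Interaction terms, the TSA change with AzaC minus that without it, were 0.14 for Gclc (-0.93 to 1.21), 0.01 for Gstp1 (-1.52 to 1.55), -0.52 for Akr1b8 (-2.76 to 1.71) and 0.58 for Prdx2 (-0.14 to 1.30). Intervals of this width do not show that the drugs act independently.

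The 2 members under an unadjusted 0.05 for AzaC against untreated were Gpx3 and Prdx3, chosen after their values were seen. Gpx3, the secreted glutathione peroxidase, was at 14.6 and 10.6 untreated and at 75.7 and 72.7 with AzaC, at least 1.89 higher on the log2 scale (adjusted p = 1.0 by limma). With TSA it was at 124.6 and 34.3 and with AzaC/TSA at 101.1 and 27.8, so all 6 treated arrays were above both untreated ones. Its untreated arrays were under the floor, and it was tested only because treated arrays passed the filter. This favours a rise over untreated cells. Prdx3 was at 1151.5 and 900.6 untreated, 587.7 and 627.4 with AzaC, 862 and 609.1 with TSA, and 682.2 and 835.5 with AzaC/TSA, with a change of -0.75 for AzaC (adjusted p = 1.0 by limma).

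Some members differed between the experiments at equal treatment. With the group means and 1 experiment term in the model, 0 member probe sets were higher and 5 were lower in experiment 2 (10.4%, against 4.22% of all probe sets, 1.58% higher and 2.64% lower). Gsta4, which conjugates the lipid peroxidation product hydroxynonenal, had signals of 59, 126.3, 186 and 383.6 in experiment 1 for untreated, AzaC, TSA and AzaC/TSA, and of 14.4, 2.2, 16.4 and 7.5 in experiment 2, all under the floor. The probe set was tested only because its experiment 1 arrays passed the filter, so it had to differ between the experiments. The log2 difference was -2.92, a fall of at least that size (limma adjusted p = 0.00692). Gstk1, given above, had a log2 difference of -1.98, also at least that size (adjusted p = 0.00938 by limma), and Aldh1a1 on 100068_at one of -2.19 (adjusted p = 0.0209).

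Aldh7a1 passed on both of its tested probe sets. On 97449_at it was at 606.9, 725.1, 1187.7 and 1085.3 in experiment 1 and at 305.7, 279.1, 483.9 and 255.6 in experiment 2, so the experiments did not overlap (-1.44, SE 0.20, limma adjusted p = 0.00442). On 97450_s_at it was at 642.1, 817.9, 1611.7 and 1493.7, and at 571.9, 452.7, 725 and 464.9 (-0.96, SE 0.22, adjusted p = 0.0443). Without the filter none of the 5 passed, as no probe set did. The count was 1 without TSA 1 or TSA 2, 2 without AzaC/TSA 1, and 3 without AzaC 1, AzaC 2 or AzaC/TSA 2, where 0.851% to 1.26% of all probe sets were called. Thy1, a surface protein of neurons and fibroblasts, was also lower in experiment 2, at 197.3 to 527.4 in experiment 1 and 6.6 to 129.5 in experiment 2. The other tested markers of the fibroblast list overlapped between the experiments. Col1a1 was at 53.2 to 110.6 and 51.2 to 129, Col1a2 at 239.9 to 392 and 303.5 to 457.3, and Dcn at 7 to 78.3 and 13.5 to 53.5. Whether Thy1 has a part in the difference of the members was not tested.

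**Figure D4:**
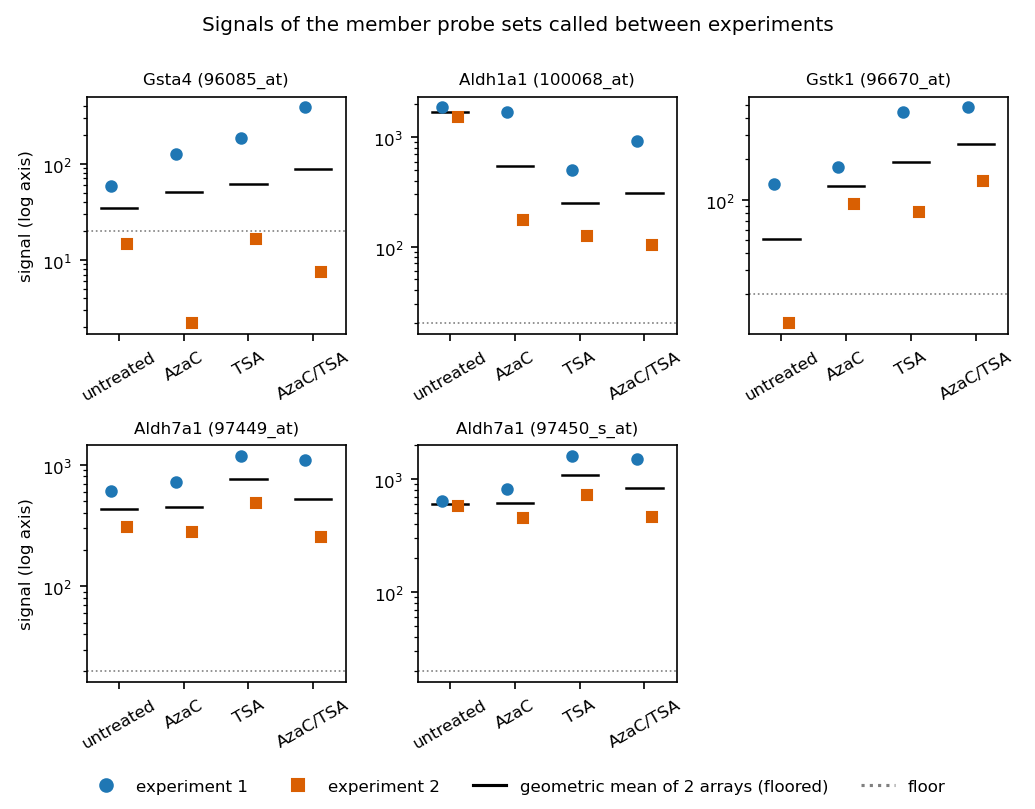
Signal of the 5 member probe sets that differed between experiments, by group and experiment, on a log axis with the floor of 20 marked. In each panel the experiment 2 array of a group lies below its experiment 1 array, and for Gsta4 all 4 arrays of experiment 2 lie under the floor.

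Other redox and detoxification genes were taken from a list of 72 genes, of which 53 were on the array and 45 were tested, each by its brightest probe set. With TSA pooled over AzaC, 7 rose and 2 fell (6.95% and 7.54% of all probe sets did), with a median change of -0.21 over the 45. Nfe2l2, the regulator itself, was at 624.2 and 660.2 untreated, 734.3 and 618.3 with AzaC, 1776.4 and 1023.2 with TSA, and 2152.7 and 1043.3 with AzaC/TSA (2.16-fold, log2 1.11, limma adjusted p = 0.0271). Srxn1, sulfiredoxin, which repairs over-oxidised peroxiredoxins, rose 4.44-fold (2.15, 0.00827 by limma), from 62.9 to 131.6 on the arrays without TSA to 245.4 to 791.4 with it. Msrb1, a methionine sulfoxide reductase, rose 3.31-fold, and Sqstm1, an autophagy receptor that binds Keap1, rose 2.28-fold. The metal-binding metallothioneins Mt1 and Mt2 rose by 2.22 and 2.53 on the log2 scale, and Txnip, the inhibitor of thioredoxin, by 3.65.

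Of those that fell, Txn1, thioredoxin itself, went from 12476.1 to 18563 on the arrays without TSA to 5891.7 to 8784.4 with it (2.20-fold lower, log2 -1.14, limma adjusted p = 0.00659). Tkt, transketolase of the pentose phosphate pathway, went from 1213.1 to 1795.3 to 532.9 to 635.6 (2.33-fold lower, adjusted p = 0.00295). Txn2, the mitochondrial thioredoxin, and Txnrd3, another thioredoxin reductase, had changes of -0.14 and -0.24 and did not pass. With the block Fth1, ferritin heavy chain, and Mgst3, a microsomal glutathione transferase, were added to those that rose. In the comparison of experiments, 1 of the 45 was higher in experiment 2 (Gsr, glutathione reductase) and 2 were lower (Mt1 and Mt2), where 4.22% of all probe sets differed.

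The 17 member probe sets that were not tested had signals of at most 77.6. The 10 genes with no tested probe set were Akr1c21, Akr1c6, Aldh1a2, Aldh1a3, Gpx5, Gpx7, Gsta1, Gsta2, Gsta3 and Gstt2. A signal under the floor on this array does not show that a gene is absent. Of the dimmer tested members, Gstt1, a theta-class transferase, reached 72.9 with TSA and 58.2 with AzaC/TSA in experiment 1 and was at 8.3 to 25.3 on the other 6 arrays (at least 0.94, limma adjusted p = 0.281). Gsto1, an omega-class transferase, was at 925.7 and 574.8 in experiment 2 with TSA and AzaC/TSA and at 198.5 to 310.6 on the other 6 (0.86, adjusted p = 0.225). For both, the high values came from the TSA-treated arrays of a single experiment. Gstt1 was tested only because those arrays passed the filter, which favours its change.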

How the data were processed

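RNA of 8 neurosphere samples was measured on short-oligonucleotide arrays. The authors deposited 1 linear intensity per probe set and array. The values show a common 2%-trimmed mean of 200.1. The upstream software is not given in the sources used here. Probe sets were named from the platform annotation (10855 with a single symbol, 396 with several, 1237 with none), and all 46 member symbols are current in RefSeq. Control probe sets (66) were left out. Intensities under a floor of 20 were raised to it and log2-transformed, and the 7987 probe sets with at least 2 arrays at 50 or more entered limma 3.58.1 (R 4.3.3, 1 mean per group, eBayes with intensity trend, two-sided, Benjamini-Hochberg over all 7987, threshold 0.05). Residual degrees of freedom were 4 (prior 4.93), and 3 (prior 6.71) with the experiment as a block. The median SE was 0.409 for 2 arrays against 2 and 0.289 for 4 against 4, a precision limited by the small number of arrays. The fit was tested on simulated data.

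The sample titles number 2 independent experiments, so equal numbers pair the arrays; deviations from group means correlated between groups with r of 0.203 to 0.411 over 6 pairs of groups. The labels do not say whether the arrays of an experiment came from 1 or several embryos.

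The members, the list of other redox genes, the marker lists and the tests were chosen with earlier results of these data known. Values for every array were given for members past the threshold in any comparison, for Gclc, Gclm, Nqo1, Hmox1 and Txnrd1, and for the brightest tested member of each family, and further members were added after their values were seen. Other members are given by change or count. Alternatives were quantile normalization, median centring, floors at 2.5% and 20% of the trimmed mean, no filter, a filter at 50%, no intensity trend, the replicate block, a fit of the compared groups alone, and leaving out each array in turn.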

Additional observations from a re-analysis of the deposited data

Results flagged for a closer look

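For 4 of 20 named probe sets, AzaC moved both pairs of arrays one way in experiment 1 and both the other way in experiment 2; 40 changes were looked at (AzaC and TSA) and the difference between experiments was not tested. The AzaC change of experiment 2 minus that of experiment 1, as a mean log2 over 2 pairs each, was 1.41 for Hmox1 (-0.29 and -1.02 in experiment 1, 0.38 and 1.13 in experiment 2). It was 0.72 for Nqo1 on 94350_f_at (-0.38 and -0.10, then 0.19 and 0.77), 0.47 for Aldh2 on 161997_f_at (-0.37 and -0.26, then 0.27 and 0.04), and -0.43 for Akr1a1 (0.28 and 0.01, then -0.42 and -0.14).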

How the results depend on the processing

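Counts of member probe sets called were 4 for TSA against untreated, 3 for AzaC/TSA against untreated, 5 for TSA added to AzaC (AzaC/TSA against AzaC), 8 for TSA exposure pooled over AzaC and 5 for experiment 2 against experiment 1 within groups. In that order they were 1, 0, 0, 5 and 0 without a filter, where more probe sets were tested. Over all probe sets the counts in that order were 401, 249, 223, 1157 and 337, and without a filter 135, 63, 113, 672 and 0. Without the intensity trend TSA against untreated gave 2, AzaC/TSA against untreated 0, TSA added to AzaC 0 and the experiments 1. Over all probe sets the counts were then 216, 152, 135 and 74. With only the groups compared, which uses fewer arrays, the first 3 comparisons gave 2, 0 and 0, and 171, 49 and 45 over all probe sets. The floor at 2.5% gave 3 for TSA added to AzaC. With the replicate block TSA against untreated gave 9, AzaC/TSA against untreated 10 and TSA exposure pooled over AzaC 13 (971, 746 and 1908 over all probe sets). Leaving out 1 array at a time gave 0 to 4, 0 to 3, 0 to 2, 5 to 8 and 1 to 5, and 0 for each AzaC comparison. Where not said otherwise, the cause was not tested. Over all probe sets, TSA exposure pooled over AzaC called 1157, 672 without a filter, 1908 with the block and 575 without untreated 2. Of the other redox genes, 9 were called for TSA exposure pooled over AzaC and 4 without a filter. For 37 results on single probe sets, 598 values under alternatives gave 452 on the same side of the threshold, 139 that no longer passed, 7 that newly passed and 0 of the other sign among those called. Akr1b8, Gstp1, Gclc, Prdx2 on 100331_g_at and Aldh2 on 96057_at passed for TSA exposure pooled over AzaC in all 16 alternatives. Signals under the floor of 20 limit the changes of Gsta4, Gstk1, Gstm6, Gstt1, Gpx3, Aldh3a1 and Gstm2 on 93009_at to lower bounds.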
